A study of Mus musculus with 5 samples.

Results

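The interleukin 6 family and its JAK-STAT3 signaling genes were examined in bulk RNA-seq of prostate tumor tissue. They were taken by symbol from the count table as 10 of 24527 genes, namely the ligands Il6, Lif, Osm and Il11, the receptor chains Il6ra, Il6st, Lifr and Osmr, the transcription factor Stat3 and its feedback inhibitor Socs3. The tissue came from 3 castrated and 2 intact TripleTg mice, which were castrated at 4 months or left intact and were all analyzed at 8 months of age. Mice of both groups carried a human HGF transgene expressed ubiquitously (hHGFtg), a human MET transgene (hMETtg) and a Ctnnb1 allele that yields stabilized β-catenin, the last 2 of these active after Cre recombination in cells where the probasin promoter (PBCre) is on, and were of mixed C57BL/6 and C3H SCID background. Probasin is a prostate epithelial gene under androgen control, and no sample without the transgenes was part of the comparison. Each sample was a separate animal, and the libraries held 28015507, 18951782 and 20492061 counts for the castrated mice and 21560355 and 22853501 for the intact mice. Values per sample are given in replicate order throughout.

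Cytokines of the interleukin 6 family signal through the shared receptor chain gp130, the product of Il6st. Each ligand adds its own partner, which is the interleukin 6 receptor for interleukin 6, the LIF receptor for leukemia inhibitory factor, and the oncostatin M receptor for oncostatin M in the mouse. The assembled receptor activates Janus kinases, which phosphorylate STAT3, and phosphorylated STAT3 enters the nucleus and induces genes that include Socs3, whose product binds gp130 and the kinases and shuts the signal off. Messenger RNA counts show neither phosphorylation nor receptor assembly. In prostate tissue these cytokines are made by stromal and immune cells as well as by tumor epithelium, and in bulk samples a change in the number of such cells cannot be told apart from a change in the RNA of each cell.

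Before the groups were compared, the tissue was checked against marker genes, and 2 libraries stood apart. Epithelial keratin Krt8 was abundant in every sample, from 661 to 1155 CPM (counts scaled to a common library total, with TMM factors). Of the prostate luminal genes, Tgm4 (a secretory transglutaminase) had 1347 CPM in intact replicate 2 and at most 0.419 CPM in the other 4 samples, and Msmb had 0 counts in all 5 samples. Pbsn, the gene whose promoter drives Cre in these mice, had 5.21 CPM in intact replicate 2 and at most 0.454 CPM elsewhere. Intact replicate 2 therefore held prostate secretory transcripts that intact replicate 1 and the castrated samples nearly lacked. Castrated replicate 3 held liver transcripts, with Alb (serum albumin) at 13843 CPM against at most 48.6 CPM elsewhere, and a summed level of 20985 CPM over 8 liver genes against 4.56 to 61.2 CPM in the other samples. These 8 genes were chosen after their values were seen. Several results are therefore also given without 1 or both of these libraries.

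All 10 genes passed the filter on low counts, a CPM above 1 in at least 2 samples, which kept 14612 genes. No gene was called between castrated and intact samples at a Benjamini-Hochberg adjusted p under 0.05 with a log2 fold change beyond 1 in either direction (quasi-likelihood F-test of edgeR), so that 0 of 10 members were called against a background of 0% of the genes tested. At an unadjusted p under 0.05 in edgeR, 1 member, Il6st, was higher in castrated samples and 0 were lower, where 8.74% of all genes tested were higher and 6.28% lower. Every castrated sample lay above both intact samples for 4 of 10 members (Osm, Il6st, Osmr and Stat3) against 17.0% of all genes, and below both for 0 of 10 against 16.1%. The fitted log2 fold change was above 0 for 8 of 10 members against 47.9% of all genes, with a median of 0.55 over the members and -0.03 over all genes tested. The median of the members was 0.09 without intact replicate 2, 1.26 without intact replicate 1, 0.53 without castrated replicate 3 and 0.16 without castrated replicate 3 and intact replicate 2 together, while that of all genes stayed between -0.03 and 0.04 in these fits. The exceptions below 0 with all samples were the ligands Il6 and Il11.

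**Figure D1:**
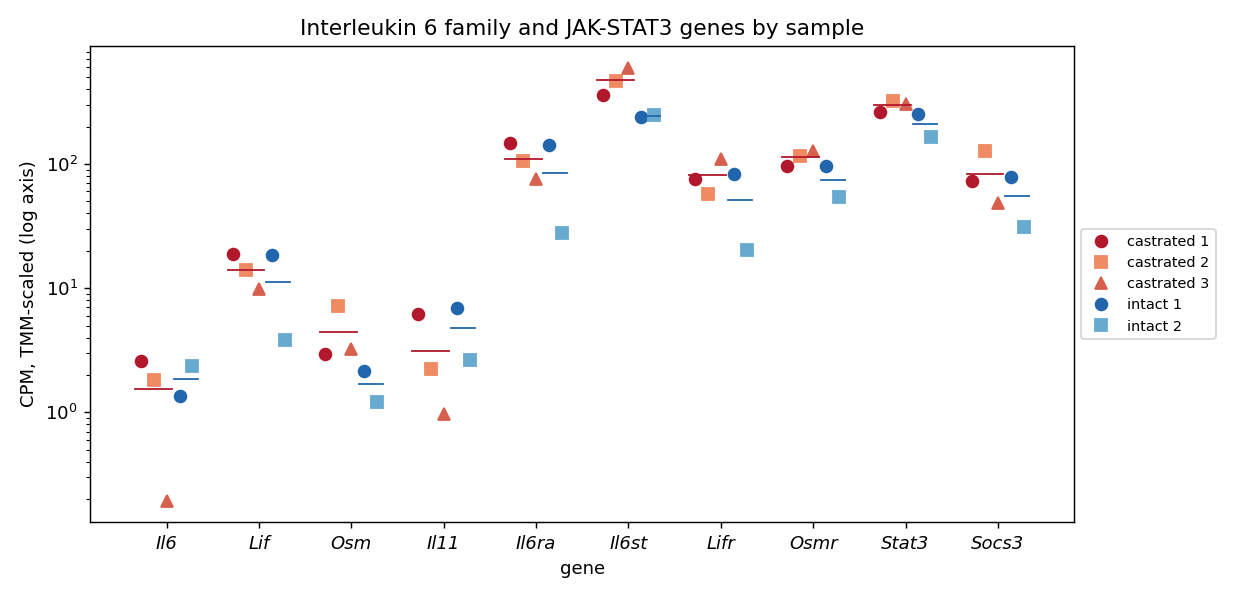
TMM-scaled CPM of the 10 genes (log axis) in each of the 3 castrated (red) and 2 intact (blue) samples, with horizontal lines at the group means. Il6st lies between 361 and 597 CPM in the castrated samples and at 238 and 246 CPM in the intact samples, and intact replicate 2 is the lowest point for 7 of the 10 genes.

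Among the receptor chains, Il6st, which encodes the shared subunit gp130, differed most clearly. Il6st (chromosome 13 from 112464070 to 112506860, mm10) had 361, 467 and 597 CPM in the castrated samples and 238 and 246 CPM in the intact samples. The 2 intact samples were nearly equal, and the lowest castrated sample was well above both. The mean was 475 ± 118 CPM (SD, n = 3) in castrated and 242 ± 5.55 CPM (SD, n = 2) in intact samples. The log2 fold change was 0.97 (standard error, SE, 0.29, unadjusted p = 0.0178, edgeR adjusted p = 0.297), and Il6st ranked 875 of 14612 genes by p. Without castrated replicate 3, the library with liver transcripts, the log2 fold change was 0.78, without intact replicate 2 it was 0.95, and without both it was 0.77 (unadjusted p = 0.0964 in edgeR). DESeq2, run on the same counts, gave the same log2 fold change with an adjusted p = 0.0338. DESeq2 gave low p-values more often than edgeR, with 20.7% against 15.0% of all genes at an unadjusted p under 0.05. It called 989 genes where edgeR called 0, at a log2 fold change beyond 1, which Il6st did not reach. Over the edgeR fits that each left out 1 sample, the log2 fold change of Il6st ranged from 0.78 to 1.14. Relative to its size this was the narrowest range of the members. An exact permutation test on the ranks of a single gene cannot go below a two-sided p of 0.2 with 3 against 2 samples.

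Osmr, the oncostatin M receptor chain (chromosome 15 from 6813577 to 6874313), had 96.2, 117 and 127 CPM in the castrated samples and 95.4 and 54.4 CPM in the intact samples. The groups did not overlap, but castrated replicate 1 and intact replicate 1 were almost the same, and intact replicate 2 lay well below the other 4. Its log2 fold change of 0.59 (SE 0.30, edgeR adjusted p = 0.401) became 0.20 without intact replicate 2 and 1.08 without intact replicate 1. Lifr, the leukemia inhibitory factor receptor chain (chromosome 15 from 7129572 to 7197489), lies near Osmr on the same chromosome. It had 75.6, 57.1 and 110 CPM in castrated and 82.7 and 20.1 CPM in intact samples. Intact replicate 1 was within the castrated range and intact replicate 2 far below it, and the log2 fold change of 0.65 (SE 0.63) became -0.07 without intact replicate 2. Il6ra, the chain that binds interleukin 6 itself (chromosome 3 from 89869324 to 89913196), had 146, 105 and 75.3 CPM in castrated and 141 and 27.9 CPM in intact samples. The 2 intact samples thus spanned more than the 3 castrated ones, and the log2 fold change of 0.36 (SE 0.69) became -0.42 without intact replicate 2. Exons of Il6ra share 242 bases with the antisense gene Gm42809 in the GENCODE annotation, and since the use of strand in counting is not stated, reads there cannot be assigned to one or the other.

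Stat3, the transcription factor downstream of gp130 (chromosome 11 from 100886806 to 100939540), had 264, 321 and 303 CPM in the castrated samples and 251 and 165 CPM in the intact samples. All castrated samples were above both intact samples, by a small margin over intact replicate 1. The mean was 296 ± 29.2 CPM (SD, n = 3) against 208 ± 61.0 CPM (SD, n = 2), and the log2 fold change was 0.51 (SE 0.26, edgeR adjusted p = 0.407). Without intact replicate 2 it was 0.19, and without intact replicate 1 it was 0.86. Stat3 exons share 72 bases with Stat5a on the other strand. Socs3, the feedback inhibitor that STAT3 induces (chromosome 11 from 117966087 to 117969366), had 73.5, 128 and 48.3 CPM in castrated and 79.1 and 31.0 CPM in intact samples. The groups overlapped, since castrated replicate 3 was below intact replicate 1, and Socs3 spread more among the castrated samples than Stat3 did, with an SD of 40.6 against 29.2 CPM at a lower mean. Its log2 fold change was 0.59 (SE 0.57, edgeR adjusted p = 0.654) and became 0.03 without intact replicate 2 and 1.44 without intact replicate 1. The ratio of Socs3 to Stat3 in TPM (a measure that also corrects for gene length) was 0.460, 0.656 and 0.263 in castrated and 0.519 and 0.310 in intact samples, again with overlapping groups.

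The sequence before the start site is shown for Il6st, the member with the clearest difference, and for Socs3, the textbook STAT3-induced member. Each window spans the RefSeq start site, with most of its bases upstream, on GRCm38.p6, the build also called mm10, at chr13:112463820-112464119 on the plus strand for Il6st and chr11:117969317-117969616 on the minus strand for Socs3. The windows were searched for TTCNNNGAA, the core of the element that STAT factors bind, which reads the same on both strands and includes the stricter form TTCCNGGAA. Capitals mark the match.
Il6st: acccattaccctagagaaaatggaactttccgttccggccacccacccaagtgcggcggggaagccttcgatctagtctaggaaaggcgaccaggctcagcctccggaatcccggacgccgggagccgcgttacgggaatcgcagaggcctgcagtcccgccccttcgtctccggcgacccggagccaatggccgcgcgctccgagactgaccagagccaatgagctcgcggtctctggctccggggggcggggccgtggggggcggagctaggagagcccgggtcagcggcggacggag
Socs3: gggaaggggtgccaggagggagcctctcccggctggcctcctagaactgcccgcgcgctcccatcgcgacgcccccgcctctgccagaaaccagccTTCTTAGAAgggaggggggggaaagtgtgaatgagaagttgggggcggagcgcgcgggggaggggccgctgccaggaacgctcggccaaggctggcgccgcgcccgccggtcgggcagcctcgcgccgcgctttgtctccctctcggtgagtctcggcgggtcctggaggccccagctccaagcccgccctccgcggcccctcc
The single match in Socs3, TTCTTAGAA, starts 154 bases before the RefSeq start site (chromosome 11 from 117969512 to 117969520). In GENCODE the Socs3 gene reaches to 117970047, so this window lies inside the gene in that annotation and may not be its promoter. Il6st held no match in its window. Windows were found for 9 of the 10 members, and 1 of 11 windows, that of Socs3, held the motif, against 8.30% of 32851 windows of the same length in the genome. The stricter form was in 0 of 11 windows of the members and in 1.15% of all windows.

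The ligands were expressed at low levels. Osm, which encodes oncostatin M (chromosome 11 from 4236785 to 4241026), had 2.97, 7.24 and 3.22 CPM in the castrated samples and 2.15 and 1.21 CPM in the intact samples, which rest on 85, 135, 66, 48 and 26 counts. All castrated samples were above both intact samples, with castrated replicate 2 well above the rest. The log2 fold change of 1.41 (SE 0.63, unadjusted p = 0.0716, edgeR adjusted p = 0.362) was the largest of the members, and it was 0.88 without castrated replicate 2. Lif, which encodes leukemia inhibitory factor (chromosome 11 from 4257568 to 4272514), lies next to Osm. It had 18.7, 13.9 and 9.79 CPM in castrated and 18.6 and 3.86 CPM in intact samples. Castrated replicate 1 and intact replicate 1 were level, intact replicate 2 was the lowest, and the log2 fold change of 0.33 (SE 0.70) became -0.44 without intact replicate 2.

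Il6 itself (chromosome 5 from 30013114 to 30019975) had 2.58, 1.82 and 0.195 CPM in castrated and 1.34 and 2.37 CPM in intact samples. The castrated samples covered the whole intact range, and the value of castrated replicate 3 rests on 4 counts. The log2 fold change was -0.26 (SE 0.98) and became 0.26 without castrated replicate 3 and 0.16 without intact replicate 2. Il11, which encodes interleukin 11 (chromosome 7 from 4772378 to 4782857), had 6.18, 2.25 and 0.974 CPM in castrated and 6.90 and 2.65 CPM in intact samples, with a log2 fold change of -0.60 (SE 0.87). Again castrated replicate 1 was close to intact replicate 1, and the value became 0.27 without intact replicate 1. For Il11 it was -1.17 without intact replicate 2 and -0.17 without castrated replicate 3. Among the ligands of the member list, Osm was thus the only one with groups apart. Differences in Il6, Il11 and Lif were smaller than the spread within the groups.

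Levels were compared between genes in TPM. Il6st was the most abundant member with a mean of 161 TPM over the 5 samples (range 83.8 to 255), followed by Stat3 with 134 TPM (68.1 to 169), Il6ra with 69.4 TPM (15.4 to 104), Socs3 with 61.7 TPM (21.1 to 111) and Osmr with 47.0 TPM (20.9 to 61.0). Lifr followed with 15.7 TPM (3.62 to 24.7), and the ligands were lowest, with Lif at 7.05, Il11 at 4.40, Osm at 4.11 and Il6 at 3.26 TPM on average. The ranges of all neighbours in this order overlapped. Relative to Il6st, the specific receptor chains varied between samples more than between groups. The TPM ratio of Il6ra to Il6st was 0.655, 0.365 and 0.204 in the castrated samples and 0.959 and 0.183 in the intact samples, so the intact samples were the highest and the lowest. The ratio of Osmr to Il6st ran from 0.240 in castrated replicate 3 to 0.453 in intact replicate 1, and that of Lifr to Il6st ran from 0.0432 in intact replicate 2 to 0.183 in intact replicate 1. Il6st exceeded each of these 3 chains in every sample, narrowly so over Il6ra in intact replicate 1.

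Much of the variation was between individual samples. Intact replicate 2 had the lowest CPM of the 5 samples for 7 of 10 members (Lif, Osm, Il6ra, Lifr, Osmr, Stat3 and Socs3), against 27.5% of all genes tested. Intact replicate 1 exceeded intact replicate 2 for 8 of 10 members. The median ratio of intact replicate 1 to intact replicate 2 was 2.17 over all 10 members and 0.953 over all genes. Castrated replicate 1 was close to intact replicate 1, a comparison made after the values were seen. The absolute log2 difference between these 2 samples was under 0.25 for 7 of 10 members, with a median of 0.12, whereas 34.7% of all genes were that close, with a median of 0.39. Between intact replicates 1 and 2 the median absolute log2 difference of the members was 1.09, and 1 of 10 was under 0.25, where the median over all genes was 0.57 and 25.1% were under 0.25. When intact replicate 1 was left out, 5 members had an unadjusted p under 0.05 in edgeR's quasi-likelihood test (Lif, Il6ra, Lifr, Osmr and Stat3, all higher in castrated samples), where 12.2% of all genes were higher at that p. When intact replicate 2 was left out, 0 members did, against 14.1% of all genes in either direction. Each of these fits has 1 intact sample, which is assumed to vary like the castrated samples, so the p-values hold no spread between intact mice, and the sample left in the first is the one with prostate secretory transcripts. The castrated samples lay above the remaining intact sample for 8 of 10 members without intact replicate 1 (35.4% of all genes) and for 4 of 10 without intact replicate 2 (35.4% of all genes). Osm, Il6st, Osmr and Stat3 were the 4 in the second case, in which 1 member, Il11, was below (31.4% of all genes). Without castrated replicate 3, these 4 members were above both intact samples, against 19.5% of all genes. Without castrated replicate 3 and intact replicate 2 together, both remaining castrated samples were above intact replicate 1 for 5 members (these 4 and Il6) against 38.4% of all genes, and below it for 2 (Il11 and Lifr) against 34.8%. Which of the intact samples is closer to an average intact tumor cannot be told from 2 animals.

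**Figure D2:**
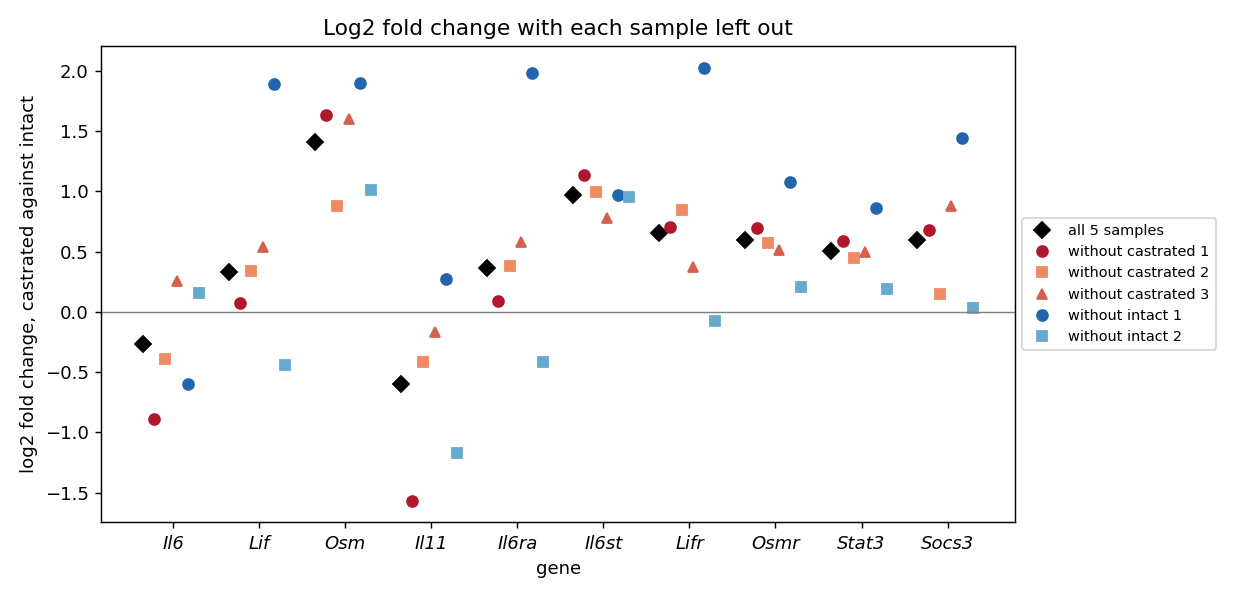
Log2 fold change of castrated against intact samples for the 10 genes with all 5 samples (black) and with each sample left out in turn (colored symbols). Il6st stays between 0.78 and 1.14, while Il6ra moves from -0.42 without intact replicate 2 to 1.98 without intact replicate 1.

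The wider pathway was described with 19 further genes, of which 15 passed the filter. None was called (0% of all genes), 3 of 15 were higher at an unadjusted p under 0.05 in edgeR (8.74% of all genes), 0 were lower, 6 were above both intact samples in every castrated sample (17.0% of all genes) and 1, Jak2, was below (16.1%). Leaving out 1 sample gave from 1 of 15 higher at that p without castrated replicate 3 (Jak1, against 4.42% of all genes) to 6 without castrated replicate 1 (Cntfr, Ebi3, Il11ra1, Il27ra, Jak1 and Ptpn6, against 10.7%), with 2 without intact replicate 2 (Il11ra1 and Jak1, against 7.47%). The median log2 fold change was 0.48 with all samples, against -0.03 over all genes tested. Jak1, the main kinase of gp130, had 274, 334 and 341 CPM in castrated and 132 and 193 CPM in intact samples. Every castrated sample was well above both intact samples, and the log2 fold change was 0.96 (SE 0.26, unadjusted p = 0.0121, edgeR adjusted p = 0.290). It was 0.91 without castrated replicate 3 and 1.22 without intact replicate 2. Jak2, by contrast, had 108, 127 and 110 CPM in castrated and 135 and 140 CPM in intact samples, so that the groups did not overlap in the other direction, with a log2 fold change of -0.26 (SE 0.17, edgeR adjusted p = 0.519). Tyk2, the remaining kinase of the family used by gp130, had a log2 fold change of 0.01 (SE 0.26).

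All 3 further receptor chains that were tested had a fitted log2 fold change above 0. Cntfr, the ciliary neurotrophic factor receptor, had 2.09, 2.90 and 8.14 CPM in castrated and 1.03 and 0.418 CPM in intact samples, with a log2 fold change of 2.58 (SE 0.87, unadjusted p = 0.0290, edgeR adjusted p = 0.309). Its highest value was in castrated replicate 3, and without that sample the log2 fold change was 1.78. Il27ra, the interleukin 27 receptor, had 2.30, 4.72 and 7.06 CPM in castrated and 1.93 and 1.91 CPM in intact samples. Il11ra1, the interleukin 11 receptor chain, had 21.6, 50.4 and 63.9 CPM in castrated and 8.25 and 23.7 CPM in intact samples, where castrated replicate 1 was just below intact replicate 2. Its log2 fold change was 1.503 (SE 0.66, edgeR adjusted p = 0.357), against -0.60 for its ligand Il11, and ranged from 0.95 without intact replicate 1 to 2.41 without intact replicate 2. Il11ra1 has a near-identical copy in the mouse genome, Il11ra2, which is listed at 0 counts, so its own counts are uncertain. Il31ra had at most 5 counts in a sample and was not tested.

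Of the further ligands, Ebi3, a subunit of interleukin 27, had 2.65, 5.42 and 5.21 CPM in castrated and 2.02 and 1.67 CPM in intact samples. The groups were apart, with a log2 fold change of 1.26 (SE 0.51, edgeR adjusted p = 0.342). Il27, the other subunit of that cytokine, had at most 6 counts in a sample and was not tested. The log2 fold change of Clcf1, which encodes a cardiotrophin-like cytokine, was 0.02 (SE 0.47) and that of Ctf1, which encodes cardiotrophin 1, was 0.41 (SE 0.47) with all samples and 0.0021 without castrated replicate 1. Cntf had at most 17 counts in a sample and Il31 had 0 counts in all 5, which allows a level of up to 0.161 CPM at the lowest depth, as 3 counts would give, for counting error alone. Among the inhibitors, Ptpn6, a phosphatase of blood cells, had 66.0, 88.0 and 77.7 CPM in castrated and 54.6 and 36.6 CPM in intact samples. For Ptpn6 the log2 fold change was 0.76 (SE 0.26, unadjusted p = 0.0306, edgeR adjusted p = 0.309), and it was 0.46 without intact replicate 2. Socs1, a relative of Socs3, had 3.18, 3.65 and 2.68 CPM in castrated and 1.75 and 1.72 CPM in intact samples, with a log2 fold change of 0.87 (SE 0.43). Cish (0.48), Pias3 (0.03), Ptpn2 (-0.16) and Ptpn11 (-0.10) had smaller log2 fold changes with overlapping groups, and Cish was at 0.27 without castrated replicate 2 and Ptpn2 at -0.04 without intact replicate 2.

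**Figure D3:**
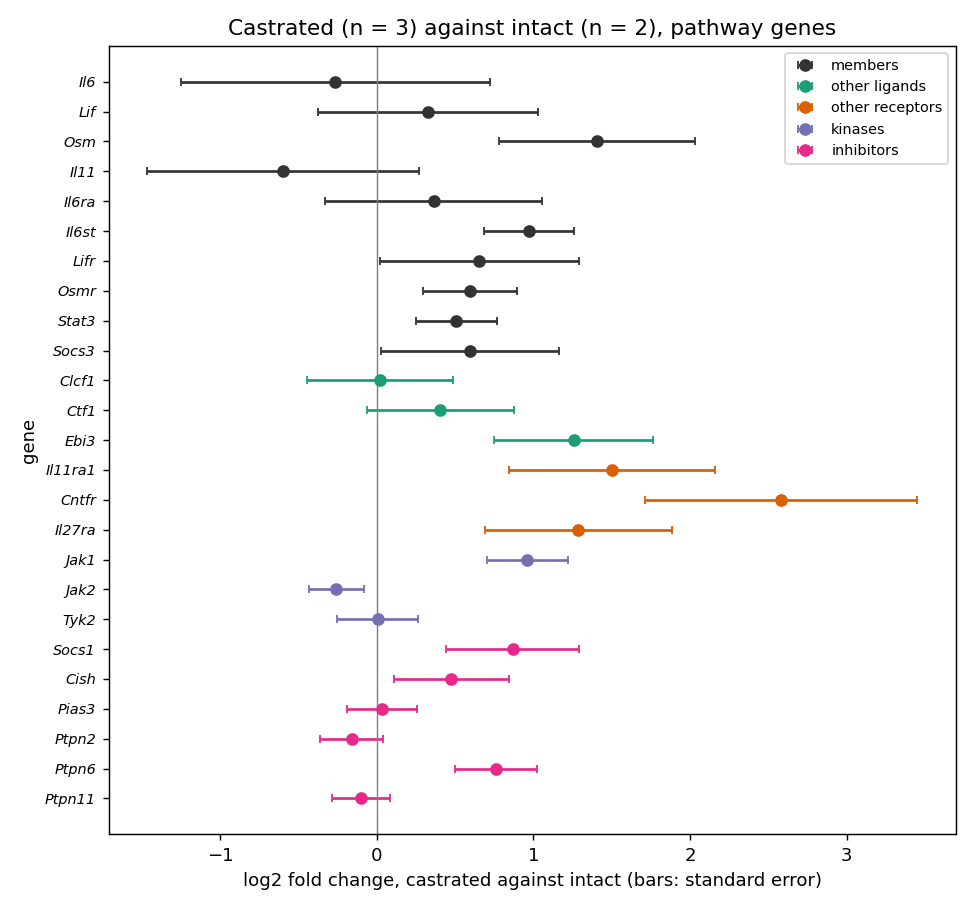
Log2 fold change of castrated (n = 3) against intact (n = 2) samples for the 10 members and the 15 further pathway genes tested, with bars for the standard error. Cntfr lies furthest to the right at 2.58, Il6st and Jak1 lie near 1 with short bars, and Il11 lies furthest to the left at -0.60 with a wide bar.

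Of 20 genes that STAT3 induces, 19 passed the filter, and 0 of these were called by edgeR's quasi-likelihood test (0% of all genes). At an unadjusted p under 0.05 in edgeR, 4 were higher and 2 lower (8.74% and 6.28% of all genes). The median log2 fold change was 0.40. Of the 4 that were higher (Cebpb, Fgb, Hp and Nnmt), Fgb and Hp were highest in the library with liver transcripts, and without castrated replicate 3 the counts were 1 higher (Nnmt) and 1 lower (Saa3) of 18 tested, against 4.42% and 2.68% of all genes. Without intact replicate 2 they were 3 higher (Bcl6, Lcn2 and Nnmt) and 2 lower (Saa3 and Vegfa) of 19, against 7.47% and 6.62%, and without intact replicate 1 they were 1 higher (Nnmt) and 0 lower, against 12.2% and 10.5%. The median of the list was 0.097 without castrated replicate 2, 0.22 without intact replicate 2 and 0.26 without castrated replicate 1. Groups were apart in 3 genes that were higher (Cebpb, Lrg1 and Nnmt) and 2 that were lower (Saa3 and Vegfa), which is no larger a share than the 17.0% and 16.1% of all genes. Nnmt, a nicotinamide methyltransferase, had 4.57, 4.24 and 5.31 CPM in castrated and 1.48 and 1.02 CPM in intact samples, with a log2 fold change of 1.91 (SE 0.44, unadjusted p = 0.00664, edgeR adjusted p = 0.289). Cebpb, a transcription factor of the acute phase response that was named here after its values were seen, had 29.5, 49.8 and 40.8 CPM against 20.6 and 21.4 CPM. Lrg1, a secreted acute phase glycoprotein, had 28.4, 33.5 and 161 CPM against 24.0 and 16.1 CPM, with its highest value in castrated replicate 3. Saa3, an acute phase gene, went the other way, with 6.39, 9.17 and 3.07 CPM in castrated and 21.8 and 18.5 CPM in intact samples, a log2 fold change of -1.70 (SE 0.49, unadjusted p = 0.0168, edgeR adjusted p = 0.294). Vegfa, the angiogenic growth factor, had 118, 124 and 66.5 CPM in castrated and 333 and 157 CPM in intact samples, with a log2 fold change of -1.26 (SE 0.42) that became -0.59 without intact replicate 1. Timp1, a metalloproteinase inhibitor, had a log2 fold change of -1.19 (SE 0.75) with overlapping groups. That value was -0.17 without intact replicate 1 and -1.81 without intact replicate 2.

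Fibrinogen transcripts came almost wholly from 1 library. Fgb, a fibrinogen chain made in the liver, had 42250 counts in castrated replicate 3 and between 0 and 29 in the other 4 samples. Fgg, another fibrinogen chain, had 28916 counts there and at most 10 elsewhere, so that it did not pass the filter. Hp, which encodes haptoglobin, had 16.4, 117 and 710 CPM in castrated and 18.9 and 5.11 CPM in intact samples, and its log2 fold change of 4.55 (SE 1.77) was 2.48 without castrated replicate 3, with castrated replicate 2 also above both intact samples. These 3 genes were high in the library that also held Alb and the other liver transcripts, and the part of liver RNA in their level was not tested. The immediate targets Junb, Pim1 and Bcl3, named after their values were seen, had log2 fold changes of 0.01, 0.44 and 0.15 with overlapping groups.

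**Figure D4:**
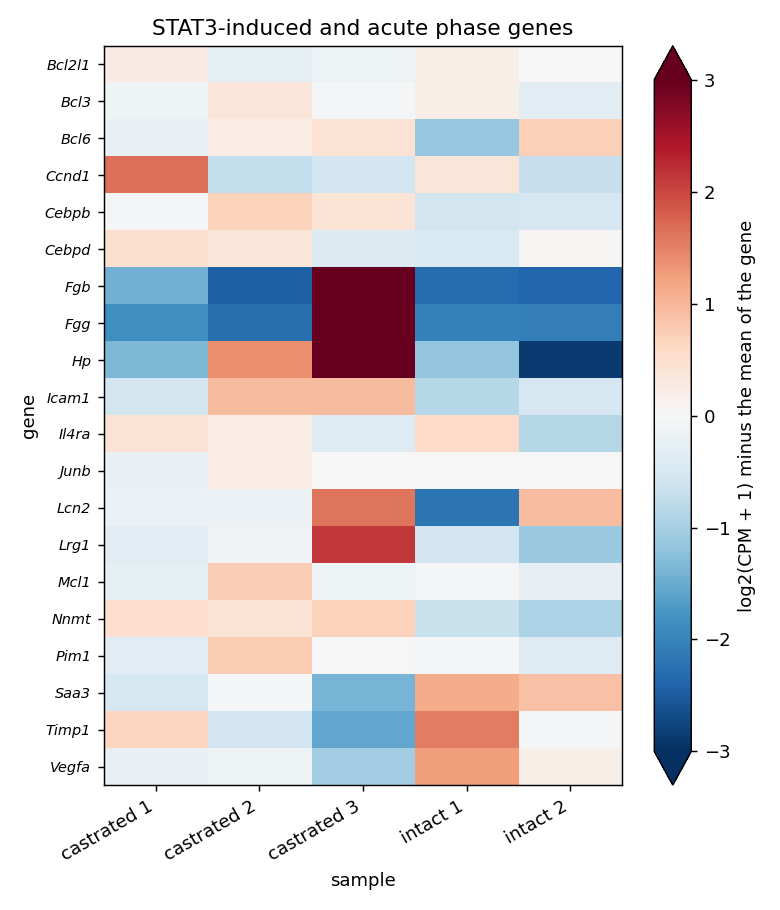
Log2(CPM + 1) of 20 STAT3-induced and acute phase genes in each sample, relative to the mean of the gene over the 5 samples, with the color scale ending at 3 on either side of 0. Fgb, Fgg and Hp are dark red in castrated replicate 3. Saa3 is red in both intact samples, while Vegfa is red in intact replicate 1 and near white in intact replicate 2. Both genes are blue or near white in the castrated samples.

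Marker genes of other cell types were counted in the same way, against backgrounds of 17.0% of all genes with every castrated sample above both intact samples, 16.1% below and 8.74% higher at an unadjusted p under 0.05 in edgeR. All 8 macrophage markers were above both intact samples in every castrated sample, each with an unadjusted p under 0.05 in edgeR, and their summed level was 1025, 2611 and 1325 CPM in the castrated samples and 542 and 593 CPM in the intact samples. The most abundant gene of each list is given by its mean over the 5 samples. Cd68 was that gene among macrophage markers, although it led in 2 of 5 samples. All 6 smooth muscle markers were also above, with sums of 374, 670 and 605 CPM against 198 and 138 CPM and Acta2 as the most abundant, leading in 3 of 5 samples. Fibroblast markers, of which Dcn was the most abundant by mean and led in 2 of 5 samples, summed to 4326, 5416 and 7188 CPM against 4137 and 2469 CPM, and 3 of 6 were above. The 3 were Dcn, Lum and Pdgfra, whereas the collagen genes Col1a1, Col1a2 and Col3a1 had overlapping groups. Of the 8 adipocyte markers, led by Fabp4 in all 5 samples, 4 were above, and the sum was 61.8, 545 and 484 CPM in castrated and 51.8 and 98.8 CPM in intact samples.

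Epithelial markers, led by Krt8 in 3 of 5 samples, summed to 3696, 3519 and 4424 CPM in castrated and 5155 and 3780 CPM in intact samples, with 0 of 6 apart in either direction. Endothelial markers, with Cdh5 the most abundant by mean and leading in 2 of 5 samples, summed to 387, 281 and 318 CPM against 441 and 178 CPM, and 2 of 6 were above (17.0% of all genes). Neutrophil markers, led by S100a9 in 4 of 5 samples, summed to 175, 155 and 102 CPM against 86.8 and 122 CPM, and 1 of 6 was above (17.0% of all genes). The T cell markers, led by Cd3g in 4 of 5 samples, had sums of 7.78, 47.0 and 41.8 CPM against 2.64 and 23.3 CPM with 0 of 6 apart. Over the prostate epithelial list, led by Krt8 in 4 of 5 samples, of which 4 of 7 genes passed the filter, the sum was 1106, 1107 and 1535 CPM against 1411 and 2540.3 CPM, and 1, Tmprss2, was below (16.1% of all genes). For the liver list, led by Alb in 4 of 5 samples, 5 of 8 genes passed the filter and 1, Ahsg, had groups apart. Msmb was the single marker at 0 counts in every sample. The part that cell composition had in the values of Il6st, Jak1, Osm, Stat3 and the other genes above was not tested.

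**Figure D5:**
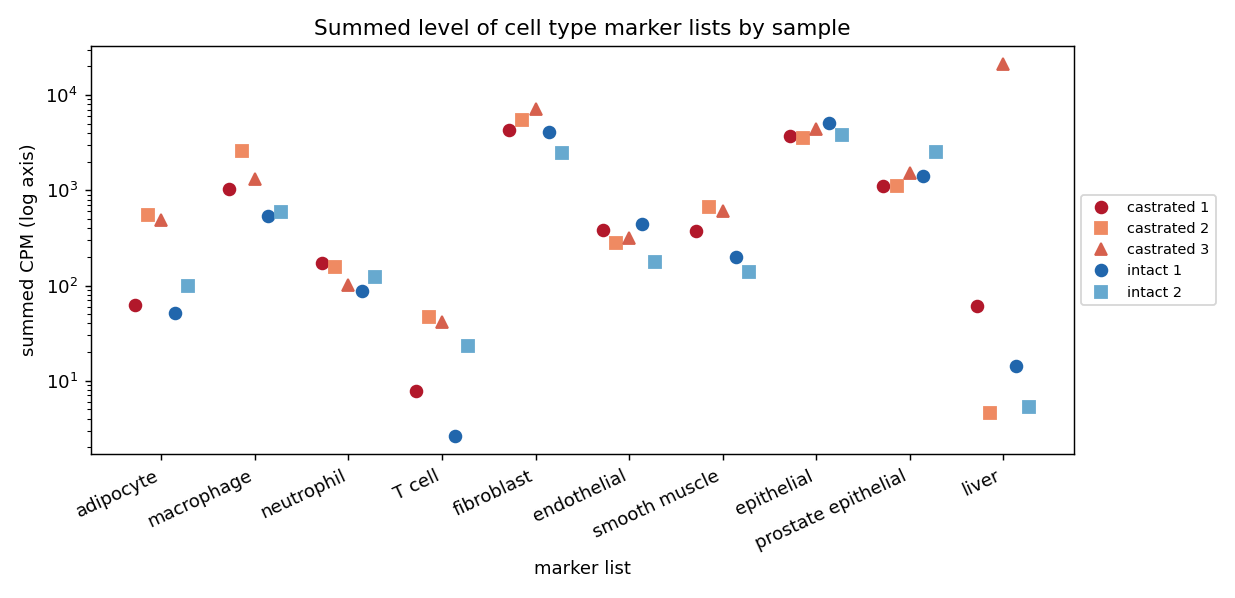
Summed TMM-scaled CPM (log axis) of 10 marker lists in each sample. The macrophage and smooth muscle sums are higher in all castrated than in both intact samples, the prostate epithelial sum is highest in intact replicate 2, and the liver sum reaches 20985 CPM in castrated replicate 3 alone.

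Profiles most like those of Il6st and Stat3 were sought among all genes tested outside the 10 members, by the root mean square difference of mean-centered log2 CPM over the 5 samples. For Il6st the closest were Zfp783 (0.0805), Cand2 (0.0850) and Fzd2 (0.0917), the last a Frizzled receptor of Wnt ligands with 13.4, 17.5 and 23.1 CPM in castrated and 7.66 and 9.30 CPM in intact samples. For Stat3 they were Gdap2 (0.0530), Mapk9 (0.0545) and Sqstm1 (0.0605). These are descriptions over 5 samples out of 14612 genes tested, with no p.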

How the data were processed

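RNA was measured in prostate tumor tissue of 3 castrated and 2 intact mice, grouped by their labels. Per the labels and methods, the authors depleted ribosomal RNA, trimmed paired-end reads (Trimmomatic 0.39), mapped them (STAR 2.7.9) to mm10 and counted reads per gene with HTSeq 2.0.2. The deposited values are raw counts, with a deposited gene length in kilobases (an other kind of value, used for TPM only). Counts were tested with edgeR 4.0.16 (limma 3.58.1) in R 4.3.3. After a filter that asked for a CPM over 1 in 2 or more libraries, genes entered the quasi-likelihood F-test with TMM normalization, library sizes being sums over the genes kept. Each standard error is the size of the log2 fold change over the root of its F statistic. Counts replaced the TPM that the methods name as input. The common dispersion was 0.238, so spread between mice limits precision more than counting does except for genes with few counts. Chi-square per gene was 133 or more for every pair of samples, so no library was a duplicate. Procedures were run on simulated counts that held no library like castrated replicate 3 or intact replicate 2. Such a simulation cannot show how the tests behave with those libraries present.

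Members and gene lists were chosen with earlier results of these data known. Named genes were all members, all genes of the pathway lists, tested or not, and the 3 nearest profiles of Il6st and Stat3. Among STAT3-induced genes they were those with the 3 highest and 3 lowest log2 fold changes, and Fgg, which did not pass the filter. Genes stated as chosen later, and those named to spell out a count of 5 or fewer, are exceptions. The liver list was added after values were seen. Same-numbered samples are different animals and were not paired. Alternatives were DESeq2 1.42.0, the likelihood ratio test, 2 scalings, 2 filters, the replicate number as a block and leaving out each sample. The older quasi-likelihood fit, and leaving out castrated replicate 3 and intact replicate 2 together, and the counts of the other gene lists under each alternative, were added after seeing the data. Promoter windows are from RefSeq (GRCm38.p6), and exon overlaps from GENCODE M21. A few genes of the lists are not reported here and were left out of the counts and sums. Other experiments of the study were not analysed here.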

Additional observations from a re-analysis of the deposited data

How the results depend on the processing

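Alternatives were run for 31 genes, namely the members, the tested pathway genes and the 3 highest and 3 lowest STAT3-induced genes. No scaling, filter or other test reversed a log2 fold change among these, whereas leaving out 1 sample reversed 9. No gene was called by the quasi-likelihood test under any scaling or filter, with the older fit, with the replicate block or without castrated replicate 3 and intact replicate 2 together, while 2195 genes had an unadjusted p under 0.05 with all samples. DESeq2 called 989 genes and the likelihood ratio test 369. Leaving out 1 sample gave 0 to 1 genes (Coch, without intact replicate 1, edgeR adjusted p = 0.0176), and 1011 (without castrated replicate 3) to 3292 (without intact replicate 1) at the unadjusted p, with 1094 without castrated replicate 2. Without castrated replicate 3 and intact replicate 2 together, 1078 genes (7.72%) and 0 members had an unadjusted p under 0.05.

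Replicate numbers are shared by different animals. The correlation across genes of the deviations of castrated and intact samples with the same number was 0.149 for number 1 and -0.045 for number 2. Under the replicate block 1046 genes (7.16%) and 0 members had an unadjusted p under 0.05 in edgeR, with Il6 at 0.28 and Tyk2 at -0.12. Of the 19 STAT3-induced genes, 0 were higher and 0 lower at that p under the block (5.32% and 1.83% of all genes). Of the 15 further pathway genes, 2 were higher (Il11ra1 and Jak1) and 0 lower.

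The count of members at the unadjusted p was 2 (Il6st and Osm) of 10 with DESeq2, against 20.7% of all genes, and the same 2 of 8 with a CPM above 1 in all 5 samples, which dropped Il6 and Il11, against 14.2%. Across the fits that each left out 1 sample it ran from 0 to 5, and the count of members higher in castrated samples from 6 to 9. Il6st kept its direction under all 14 alternatives, with adjusted p from 0.0338 (DESeq2) to 0.735 (replicate block, edgeR's quasi-likelihood test). DESeq2 also gave adjusted p under 0.05 for Jak1, Nnmt, Saa3 and Hp. With a log2 fold change beyond 1 also required, it called 989 of the 14612 genes tested.

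Log2 fold changes over the fits that left out 1 sample ran from -0.89 to 0.26 for Il6, from -0.44 to 1.89 for Lif, from -1.57 to 0.27 for Il11, from -0.42 to 1.98 for Il6ra, from -0.07 to 2.03 for Lifr, from -0.54 to 0.84 for Clcf1, from -0.18 to 0.21 for Tyk2, from -0.22 to 0.0080 for Ptpn11 and from -0.15 to 0.21 for Pias3. Without castrated replicate 3 and intact replicate 2 together they reversed to 0.69 for Il6, -0.22 for Lif, -0.19 for Il6ra, -0.34 for Lifr, -0.43 for Clcf1 and -0.05 for Pias3. The cause of these changes was not tested.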
